A study of Homo sapiens with 4 samples.

Results

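The AP-1 subunits and early growth response genes described here are 10 genes of the 60302 listed in the deposited table. They are the FOS family (FOS, FOSB, FOSL1 and FOSL2), the JUN family (JUN, JUNB and JUND), the related factor gene ATF3, and the growth factor-induced genes EGR1 and IER2. Rows were taken by gene symbol, and each symbol matched 1 row. The members were chosen with their values in these 4 samples known, both between the groups and between the replicate numbers, so their values are given as a description and carry no test. Of the 10, 9 had a mean of at least 1 FPKM (fragments scaled to gene length and library size, so levels are per length and can be compared between genes). FOSB did not reach it.

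The study asked how loss of the RNA-binding protein hnRNP F, which recognises G-rich sequence and RNA G-quadruplexes, alters the RNA of epithelial cells. PolyA-selected RNA was sequenced from 4 samples of HMLE, a line of immortalized human mammary epithelial cells. The 2 control samples carried a non-specific short hairpin RNA, and the 2 knockdown samples a hairpin against HNRNPF, all brought in by lentivirus and stably expressed. All samples are therefore transduced cells of 1 line, and the series' design text calls them separate lines in each group. The labels do not say whether samples with the same replicate number shared a day or batch, nor whether the hairpins within a group differ in sequence, so differences between samples of a group may be technical.

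AP-1 is a dimer of basic leucine zipper proteins. A JUN protein binds a FOS protein, another JUN protein or an ATF protein, and the pair binds a short palindromic DNA site. FOS, JUN, EGR1 and IER2 are immediate early genes: serum and growth factors induce them within minutes through MAP kinases, without new protein synthesis. For FOS and EGR1 this runs through the serum response factor and its ternary complex partners. The mRNAs of immediate early genes are short-lived. In mammary epithelial cells FOSL1 and FOSL2 are the more lasting FOS family members, and AP-1 is known for driving migration and matrix protease genes.

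The targeted gene, HNRNPF, had 154 and 153 FPKM in control cells against 18.7 and 16.6 FPKM in knockdown cells (limma, adjusted p = 0.0251). Leaving out control 1 raised this to 0.262 and leaving out control 2 to 0.104 (limma, adjusted p). Since separate infections are not described, a p-value here reflects no more than the variation among the 4 samples. Depth is not stated by the table. Steps between low values of single-exon genes imply about 77400000 to 85000000 fragments per sample if the commonest step is 1 fragment. All 8 basal mammary markers had means above 1 FPKM, with KRT5 at a mean of 3819 and TP63 at 26.4 FPKM. Of the 8 luminal markers, KRT8 (282 FPKM) and KRT18 (154 FPKM) were high. GATA3 (3.19 FPKM) and MUC1 (2.14 FPKM) were lower but above 1 FPKM in every sample. The 4 others stayed under 1 FPKM in every sample. The same held for 6 of 8 fibroblast markers, with COL1A1 (10.9 FPKM) and THY1 (16.8 FPKM) above it. It held for 5 of 7 leukocyte markers, with CD68 at a mean of 11.7 FPKM and CD14 at 0.535 to 1.43 FPKM, and for all 4 endothelial markers listed.

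Promoters of 5 members are shown because these genes were higher in both samples with replicate number 2 (values below). Each runs from 150 bases before the annotated start to 20 bases from it, on the RefSeq annotation of GRCh38.p14, which is not the build of the deposited coordinates. Capitals mark matches to the CArG box (the serum response factor site, EGR1), TATAAA (FOS and JUNB), TGACTCA (the AP-1 site, FOSL2) or TGACATCA (the AP-1-like site, JUN).
EGR1 (chr5:138465329-138465498, plus strand): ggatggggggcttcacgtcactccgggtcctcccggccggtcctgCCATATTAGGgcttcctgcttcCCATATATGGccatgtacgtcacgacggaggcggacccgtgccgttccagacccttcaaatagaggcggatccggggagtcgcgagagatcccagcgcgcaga
FOS (chr14:75278678-75278847, plus strand): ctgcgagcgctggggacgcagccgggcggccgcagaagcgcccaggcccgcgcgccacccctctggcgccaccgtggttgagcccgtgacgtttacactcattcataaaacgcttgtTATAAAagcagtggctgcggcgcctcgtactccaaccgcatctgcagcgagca
FOSL2 (chr2:28392708-28392877, plus strand): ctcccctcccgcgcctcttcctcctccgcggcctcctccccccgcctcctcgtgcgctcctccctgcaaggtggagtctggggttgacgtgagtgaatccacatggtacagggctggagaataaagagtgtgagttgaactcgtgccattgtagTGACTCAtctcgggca
JUN (chr1:58784028-58784197, minus strand): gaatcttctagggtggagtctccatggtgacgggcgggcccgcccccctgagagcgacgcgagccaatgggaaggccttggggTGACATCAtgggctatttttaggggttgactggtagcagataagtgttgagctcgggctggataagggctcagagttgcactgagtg
JUNB (chr19:12791336-12791505, plus strand): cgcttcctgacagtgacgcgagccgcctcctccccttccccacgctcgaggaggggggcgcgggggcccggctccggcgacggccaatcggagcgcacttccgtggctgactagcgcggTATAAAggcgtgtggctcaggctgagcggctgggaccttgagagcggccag

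RefSeq promoters (250 bases before the start and 50 from it) were matched for 9 members, with 10 starts since ATF3 has 2. FOSL1 had no entry. Both strands were searched. EGR1 had 2 CArG boxes, at -105 to -96 and at -83 to -74 from the start. It was the only member with a match in this window, against 1.29% of all 35116 promoters. Sites further upstream were not searched. FOSL2 held TGACTCA at 5 to 11 (4.95% of all promoters), and JUND held TGACGTCA, the cyclic AMP response element, at -200 to -193 (1.85%). TGACATCA was found in JUN at -67 to -60 and in ATF3 at -123 to -116 (2.61%). The 5 bases TGACG, which TGACGTCA contains, were found in 8 of the 10 member promoters and in 24.6% of all. TATAAA was present in FOS, FOSB, JUNB and the second ATF3 start (11.5% of all), at -33 to -25 in the first 3 of these. GCGTGGGCG, the EGR1 site, was in none of them (0.795% of all). A match is a description of the letters and does not show that a factor binds.

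**Figure D1:**
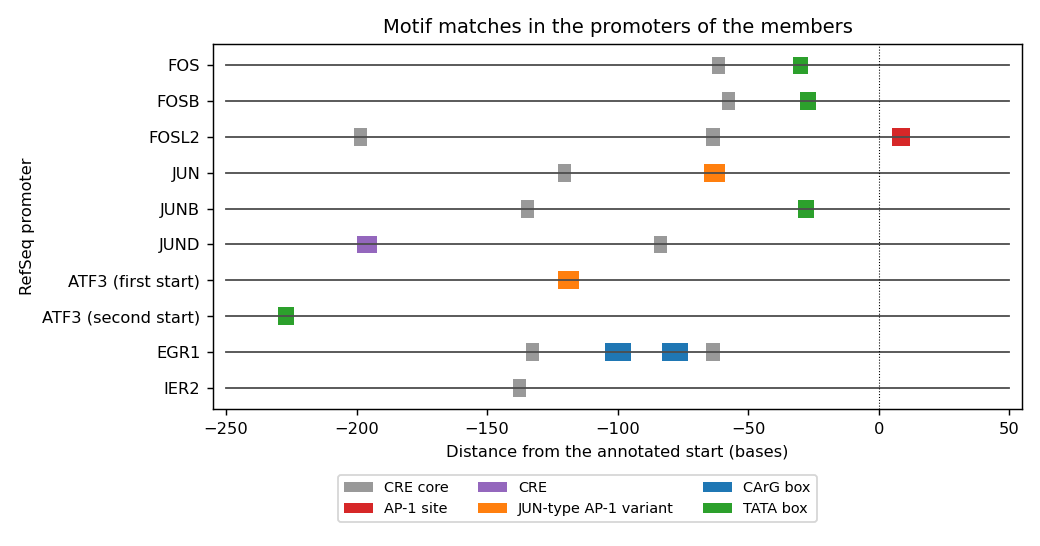
Positions of motif matches in the RefSeq promoters of 9 members, 1 line per annotated start. The x axis is the distance from that start in bases, and colours name the motif: the CRE is TGACGTCA and the CRE core TGACG, the AP-1 site TGACTCA, the JUN-type variant TGACATCA and the TATA box TATAAA. EGR1 alone has CArG boxes (2), and FOS, FOSB and JUNB share a TATA box just before the start.

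The transcripts of the members, taken as the longest protein-coding model per gene in GENCODE 29, were short in exons. All 10 had 4 or fewer exons, against 29.2% of 19603 protein-coding genes. JUN, JUNB, JUND and the longest IER2 model had 1 exon (5.98% of all). The pentamer ATTTA, the core of AU-rich elements that shorten mRNA life, was in the 3′ UTR of 9 members (66.8% of all), with 9 copies in FOSL2, 5 in FOS and none in IER2. The longer element TTATTTATT was in FOS and FOSL2 and in 8.14% of all 3′ UTRs. The sites are shown with 10 bases on each side and the element in capitals.
FOS: tgtttttaatTTATTTATTaagatggatt
FOSL2: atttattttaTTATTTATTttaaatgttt

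G-rich sequence is shown because the depleted protein binds it. A stretch of at least 4 runs of GGG with gaps of 1 to 7 bases, the usual search pattern for a G-quadruplex, was found in the transcripts of 7 members and in 25.5% of all genes. FOS, FOSL1 and JUNB had none. FOSL2 had 3 such stretches, FOSB, JUN and JUND had 2 each, and ATF3, EGR1 and IER2 had 1 each, all in UTRs. Density of GGG was 39.6 per kb in JUNB, 39.2 in JUND and 38.2 in IER2, against a median of 16.6 over all genes. FOS (15.3 per kb) and FOSL1 (15.6 per kb) lay just below that median. The member transcripts held 50.8% (ATF3) to 69.7% (JUND) GC, against a median of 49.4% over all genes, and that of FOSL2 has 6708 bases. The part of base composition and length in these matches and densities was not tested. The stretches below have their G runs in capitals. In the search, here and over all genes, a gap base could itself be G. The long first run of the JUND stretch therefore counted as 2 runs.
FOSL2, 5′ UTR: GGGGaaGGGGtgcGGGtctGGG
JUN, 5′ UTR: GGGGaGGGGaccGGGGaagagaGGG
JUND, 5′ UTR: GGGGGGGcgcGGGccccccGGG
EGR1, 3′ UTR: GGGaaaGGGGaaagaaaGGGaaaaGGG
FOSB, 3′ UTR: GGGGacaGGGGGtGGGaaGGGG

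JUNB had the highest mean over the 4 samples (54.3 FPKM), followed by EGR1 (47.1 FPKM) and FOSL1 (41.0 FPKM), and the ranges of these neighbours overlapped. IER2 (12.5 FPKM), FOSL2 (12.2 FPKM), JUN (12.0 FPKM), JUND (10.8 FPKM) and FOS (9.72 FPKM) came next, each overlapping its neighbour in this order. FOSL1 at its lowest (32.2 FPKM) lay above IER2 at its highest (15.9 FPKM). ATF3 had a mean of 3.13 FPKM, and its highest value overlapped the lowest of FOS. FOSB had a mean of 0.385 FPKM, and its highest value was below the lowest of ATF3. In bulk RNA, fewer cells expressing a gene and less RNA per cell cannot be told apart.

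**Figure D2:**
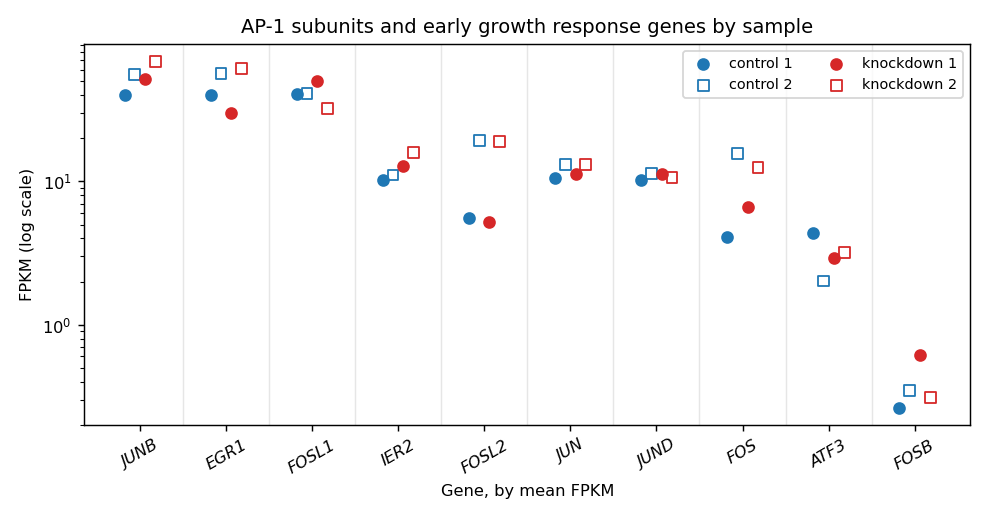
FPKM of each member on a log axis, ordered by mean, with controls in blue, knockdown samples in red, filled circles for replicate 1 and open squares for replicate 2. FOSL2 and FOS show the widest gaps between circles and squares, and JUND the narrowest range (10.2 to 11.3 FPKM).

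In the FOS family, whose proteins need a JUN partner to bind DNA, FOSL2 separated by replicate number and not by knockdown. FOSL2 (ENSG00000075426.11, chromosome 2, 28615315 to 28640179, plus strand, GRCh37) was at 5.59 and 19.3 FPKM in controls 1 and 2 and at 5.25 and 18.9 FPKM in knockdown samples 1 and 2. Both replicate 2 samples were high and both replicate 1 samples low, and the groups overlapped. The ratio of replicate 2 to replicate 1 was 3.45 in the controls and 3.59 in knockdown, while the ratio of mean FPKM in knockdown to control was 0.969.

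FOS (ENSG00000170345.9, chromosome 14, 75745477 to 75748933, plus strand), the founding immediate early member, was at 4.12 and 15.7 FPKM in control cells against 6.59 and 12.5 FPKM in knockdown cells. Both replicate 2 samples again lay above both replicate 1 samples, by 3.81-fold in the controls and 1.89-fold in knockdown. The group means were 9.92 ± 8.20 and 9.52 ± 4.14 FPKM (SD, n = 2 each). FOSL1 (ENSG00000175592.8, chromosome 11, 65659520 to 65668044, minus strand), which encodes FRA1, was at 40.7 and 41.0 FPKM in control cells against 50.2 and 32.2 FPKM in knockdown cells. The knockdown samples lay on either side of the controls, and the ratio of group means was 1.01. FOSB (ENSG00000125740.13, chromosome 19, 45971253 to 45978437, plus strand) was at 0.263 and 0.349 FPKM in control cells against 0.617 and 0.310 FPKM in knockdown cells, where knockdown 1 stood above the other samples. FOSB lies within ERCC1 on the opposite strand, which was at 80.4 to 98.6 FPKM. The libraries were stranded, but whether strand was used in counting is not given in the sources used here.

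The make-up of the FOS family differed by replicate number. FOSL1 made 80.3% and 80.1% of the summed FPKM of the 4 genes in control 1 and knockdown 1, and 53.7% and 50.4% in control 2 and knockdown 2. FOSL2 made 11.0% and 8.38% in the replicate 1 samples and 25.3% and 29.6% in the replicate 2 samples. FOS made 8.13% and 10.5% and then 20.6% and 19.5%. The family sum itself was 63.5 ± 18.2 FPKM in control against 63.2 ± 0.793 FPKM in knockdown cells (SD, n = 2 each).

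In the JUN family the highest value of a member was at most 1.71 times its lowest (JUNB), against 3.81 times for FOS and 3.67 for FOSL2. JUNB (ENSG00000171223.5, chromosome 19, 12902310 to 12904129, plus strand), a weaker activator than JUN at many sites, was at 40.3 and 55.7 FPKM in control cells against 52.3 and 69.0 FPKM in knockdown cells. Each knockdown sample stood above the control with its number, by 1.30-fold and 1.24-fold, but control 2 lay above knockdown 1 and the groups overlapped. Replicate 2 exceeded replicate 1 by 1.38-fold in the controls and 1.32-fold in knockdown. JUNB lies within the annotated locus of HOOK2 on the opposite strand, which was at 18.4 and 11.6 FPKM in control cells against 20.2 and 12.7 FPKM in knockdown cells, lower in the replicate 2 samples where JUNB was higher.

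JUN (ENSG00000177606.6, chromosome 1, 59246460 to 59249999, minus strand), the main partner of FOS, was at 10.6 and 13.1 FPKM in control cells against 11.3 and 13.2 FPKM in knockdown cells. The replicate 2 samples were the higher, by 1.24-fold and 1.16-fold, and the ratio of group means was 1.04. JUND (ENSG00000130522.5, chromosome 19, 18390570 to 18392432, minus strand), known as the steadily expressed member, was at 10.2 and 11.3 FPKM in control cells against 11.3 and 10.7 FPKM in knockdown cells. Its highest value was 1.11 times its lowest, the smallest ratio among the 10 members. JUNB made 66.1% to 74.3% of the family sum in all 4 samples, and that sum was 70.6 ± 13.5 FPKM in control against 83.9 ± 12.7 FPKM in knockdown cells (SD, n = 2 each), with overlapping groups.

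EGR1 (ENSG00000120738.7, chromosome 5, 137801179 to 137805004, plus strand), a zinc finger factor known to be induced through CArG boxes, was at 40 and 57 FPKM in control cells against 30 and 61.5 FPKM in knockdown cells. The knockdown samples held both the lowest and the highest value. Replicate 2 exceeded replicate 1 by 1.43-fold in the controls and 2.05-fold in knockdown. ATF3 (ENSG00000162772.16, chromosome 1, 212738676 to 212794119, plus strand), a stress-induced factor that can repress as a homodimer, was at 4.38 and 2.02 FPKM in control cells against 2.93 and 3.21 FPKM in knockdown cells. The controls held its highest and lowest values.

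IER2 (ENSG00000160888.6, chromosome 19, 13261229 to 13265722, plus strand), an immediate early gene for a small nuclear protein, was the member whose groups did not overlap. It was at 10.2 and 11.1 FPKM in control cells against 12.8 and 15.9 FPKM in knockdown cells, a ratio of mean FPKM of 1.34. The gap from the higher control to the lower knockdown sample was smaller than the gap between the knockdown samples.

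Between the groups, 1 of the 9 members tested lay above both controls in both knockdown samples (IER2) and 0 lay below, where 17.5% and 17.1% of the 13110 genes tested did so. Over all genes the share called in limma at an adjusted p of 0.05 was 0.00763%, 1 gene, which was HNRNPF. In that fit 797 genes had an unadjusted p under 0.05. The counts of members are a description only, since the contrast was used to choose them, and no p is given for them. The difference of mean log2(FPKM + 1), knockdown minus control, ran from -0.15 for EGR1 to 0.39 for IER2, with JUNB at 0.33. The median over the 9 was 0.03, against 0.00 over all genes tested.

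**Figure D3:**
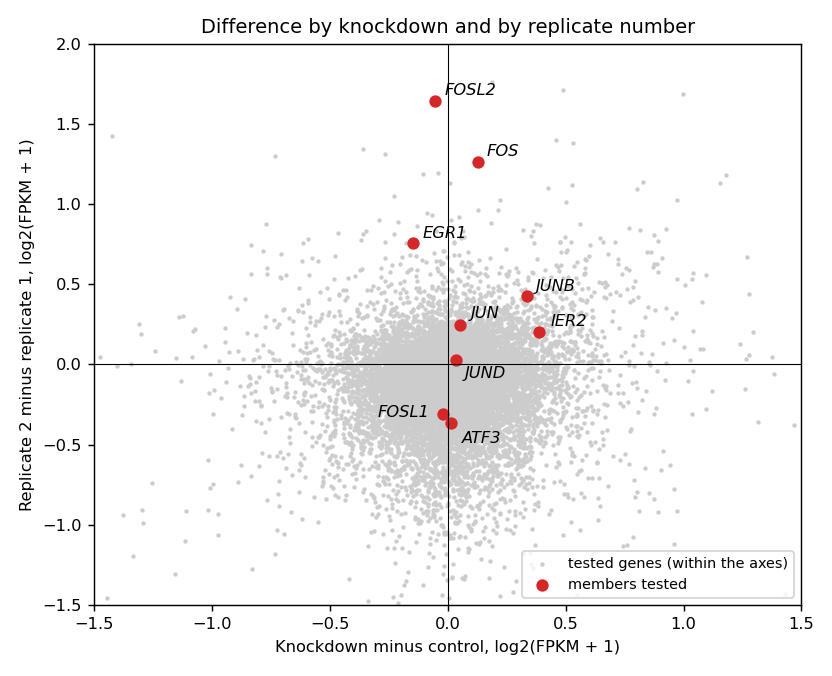
Difference of mean log2(FPKM + 1) between knockdown and control (x axis) and between replicate 2 and replicate 1 (y axis) for the 9 members tested (red) and all genes tested within the axes (grey). FOSL2 (1.65) and FOS (1.27) stand high on the y axis and near 0 on the x axis.

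By replicate number, 5 of the 9 members (FOSL2, FOS, EGR1, JUNB and JUN) lay higher in both replicate 2 samples, and 0 lay lower. Of all genes tested, 10.7% lay higher and 39.7% lower in replicate 2. This background depends on scaling: the median of all genes, replicate 2 minus replicate 1, was -0.10 on the log2 scale with FPKM as deposited, 0.02 after quantile normalization and 0.05 after median-ratio scaling. After quantile normalization 24.9% of genes lay higher and 22.6% lower, and after median-ratio scaling 30.7% and 20.2%. The same 5 members lay higher under both, joined by JUND. The replicate differences were 1.65 for FOSL2, 1.27 for FOS, 0.76 for EGR1, 0.42 for JUNB and 0.24 for JUN. Those of FOSL2 and FOS exceeded the differences of 99.9% of the genes tested, and that of EGR1 99.4%. These counts and ranks of members are a description only, since the replicate contrast was also used to choose them. FOSL1 (-0.31) and ATF3 (-0.37) were lower in replicate 2 on average, with overlap. Other measures moved with the replicate number: the replicate 1 samples had 13228 and 13390 genes at 1 FPKM or more and the replicate 2 samples 12664 and 12854, and the implied depth was 77400000 and 80600000 against 84200000 and 85000000 fragments. Of the 8 basal mammary markers 3 lay higher in both replicate 2 samples and 0 lower (10.7% and 39.7% of all genes tested). The part of these measures in the members' differences was not tested.

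The other immediate early genes, a list of 36 genes of which 29 were tested, showed a division by replicate number as well. In replicate 2, 18 of the 29 lay higher (62.1%) and 3 lower (10.3%), against 10.7% and 39.7% of all genes tested. The median difference was 0.22 against -0.10 over all genes. The counts were 21 and 0 after quantile normalization (24.9% and 22.6% of all genes). They were 22 and 1 after median-ratio scaling (30.7% and 20.2% of all genes). IER3, an anti-apoptotic early response gene, was at 148 and 209 FPKM in control cells against 148 and 188 FPKM in knockdown cells. DUSP1, the phosphatase that switches off MAP kinases, was at 5.36 and 9.04 FPKM and then 6.30 and 9.20 FPKM. BTG2, an antiproliferative gene, was at 24.9 and 29.4 FPKM and then 21.3 and 27.9 FPKM, and IER5 was at 15.0 and 17.1 FPKM and then 16.6 and 18.1 FPKM. In each of these 4 genes both replicate 2 samples were the higher. NR4A1, an orphan nuclear receptor gene, went the other way, at 2.73 and 2.11 FPKM and then 2.66 and 2.18 FPKM. The close relatives EGR2 and EGR3 had means of 0.179 and 0.861 FPKM and were not tested.

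**Figure D4:**
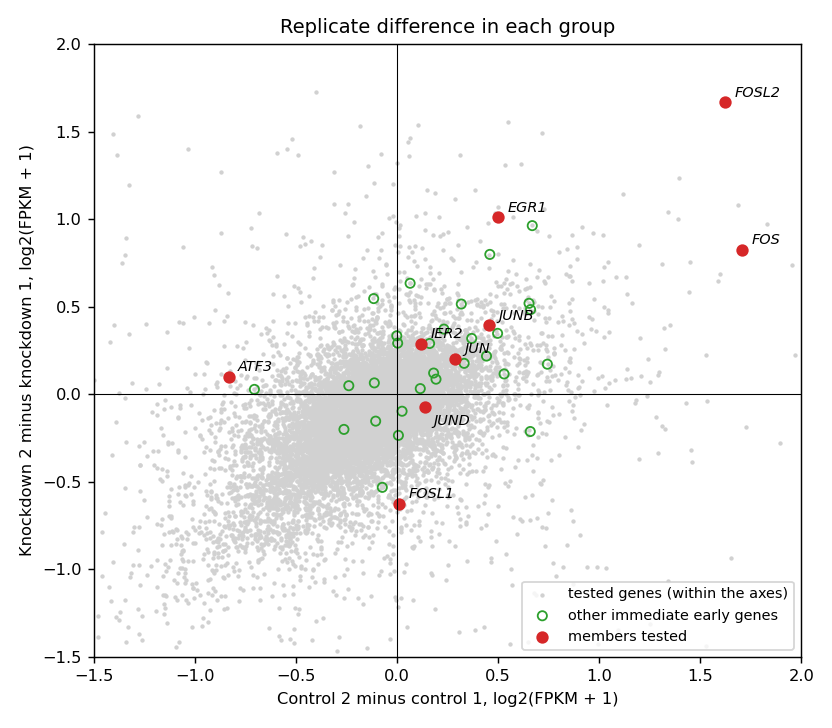
Replicate 2 minus replicate 1 on the log2(FPKM + 1) scale in the controls (x axis) and in the knockdown samples (y axis). Members tested are red, the 29 other immediate early genes are green circles, and all genes tested within the axes are grey. FOSL2 lies at 1.62 and 1.67, FOS at 1.71 and 0.82, and most green circles lie in the upper right while the grey cloud is centred below 0.

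Between the groups the same list had 16 genes above 0 and 13 below, with a median of 0.00. That median ran from -0.07 without knockdown 2 to 0.11 without knockdown 1, with 0.10 without control 2 and -0.05 without control 1. None was called in limma, and 0 had an unadjusted p under 0.05. PLK2, a polo-like kinase gene, had the smallest p (22.7 and 22.6 FPKM in control cells against 16.3 and 20.8 FPKM in knockdown cells; limma, adjusted p = 0.888). KLF4, an epithelial zinc finger factor gene, followed (3.60 and 3.62 FPKM, then 5.13 and 4.21 FPKM; adjusted p = 0.890 in limma). KLF6 was at 12.8 and 11.7 FPKM in control cells against 12.8 and 19.2 FPKM in knockdown cells. ZFP36, whose product binds AU-rich elements and speeds decay of such mRNAs, was at 7.27 and 12.0 FPKM and then 12.5 and 10.7 FPKM.

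By Euclidean distance of the 4 log2(FPKM + 1) values after subtraction of each gene's mean, the 5 protein-coding genes most like FOSL2 were CDKN2AIP (distance 0.273), LCE1C (0.407), ST6GAL1 (0.489), GABARAP (0.499) and LFNG (0.519). CDKN2AIP, which encodes a protein that binds the p14ARF tumour suppressor, was at 1.04 and 6.06 FPKM in control cells against 1.37 and 6.87 FPKM in knockdown cells. GABARAP, an autophagy gene, was at 27.4 and 73.5 FPKM and then 30.6 and 62.3 FPKM. Of 11406 protein-coding genes compared, 24 were higher in replicate 2 by at least 1 and 6 by at least 1.5 on this scale. Genes lower in replicate 2 by as much were not counted. The measure rests on 4 samples.

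Upstream genes, 23 of them tested, had 7 above 0 and 16 below with a median knockdown difference of -0.04 (-0.07 without control 1), and 0 were called in limma. SRF, the serum response factor that binds CArG boxes, was at 13.5 ± 2.17 FPKM in control against 11.6 ± 1.23 FPKM in knockdown cells (SD, n = 2 each). SRF overlapped between the groups, as did its partners ELK1 (18.6 ± 0.440 and 18 ± 0.88 FPKM), ELK3 (42.7 ± 2.88 and 40.6 ± 0.391 FPKM) and ELK4 (8.85 ± 2.87 and 8.62 ± 2.17 FPKM). MKL2, a coactivator of SRF, had the smallest p (4.2 and 5.2 FPKM in control cells against 3.45 and 1.96 FPKM in knockdown cells; limma, adjusted p = 0.830). MAP2K2, the kinase MEK2 upstream of ERK, was at 69.5 and 68.1 FPKM and then 60.8 and 58.4 FPKM (limma, adjusted p = 0.836).

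A list of genes for corepressors, ubiquitin ligases and regulators of mRNA stability had 4 above 0 and 8 below of 12 tested. The median was -0.14 (-0.07 without control 1), and 0 were called in limma. Not every gene on the list, which includes ELAVL1 and HNRNPD, is known to restrain the members. For 6 of the 12 (50%) both knockdown samples lay below both controls, as did 17.1% of all genes tested. The EGR corepressor genes NAB1 (38.0 and 29.8 FPKM in control cells against 25.9 and 26.2 FPKM in knockdown cells; limma, adjusted p = 0.831) and NAB2 (15.9 and 13.5 FPKM, then 12.4 and 13.0 FPKM; adjusted p = 0.916 in limma) were among these. So was CNOT7, a deadenylase of the mRNA decay machinery (28.5 and 25.9 FPKM, then 18.9 and 23.3 FPKM; limma, adjusted p = 0.830). FBXW7, part of a ubiquitin ligase for JUN, was at 10.6 ± 2.17 and 8.74 ± 0.9 FPKM (SD, n = 2 each), with overlap.

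Among the other basic leucine zipper genes, 8 of 15 were tested, with 4 above 0, 4 below, a median of -0.03 and 0 called in limma. That median was 0.05 without either control and -0.10 without knockdown 1 or -0.07 without knockdown 2. MAFF, a small MAF gene, was at 8.42 and 5.45 FPKM in control cells against 6.31 and 18.3 FPKM in knockdown cells, with knockdown 2 apart from the rest (limma, adjusted p = 0.951). CREB5 was at 2.72 and 3.18 FPKM and then 4.13 and 3.05 FPKM (limma, adjusted p = 0.970). MAFG (6.64 ± 2.60 and 5.83 ± 0.556 FPKM), MAFK (3.74 ± 0.159 and 3.91 ± 0.719 FPKM) and ATF2 (11.6 ± 1.62 and 10.2 ± 0.620 FPKM) overlapped between the groups (SD, n = 2 each).

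Known AP-1 target genes had 13 of 15 tested above 0 and 2 below, with a median of 0.15 (0.08 without control 1) and 0 called in limma. For 6 of the 15 (40.0%) both knockdown samples lay above both controls, as did 17.5% of all genes tested. MMP1, the interstitial collagenase, was at 1.31 and 3.16 FPKM in control cells against 4.04 and 4.75 FPKM in knockdown cells (limma, adjusted p = 0.830). MMP10, stromelysin-2, was at 0.808 and 1.58 FPKM and then 1.87 and 3.10 FPKM (limma, adjusted p = 0.840). PLAU, the urokinase gene, was at 161 and 176 FPKM and then 187 and 186 FPKM, and its receptor gene PLAUR was at 15.3 and 15.7 FPKM and then 17.7 and 16.9 FPKM. CCND1, cyclin D1, was at 58.6 ± 1.64 and 60.9 ± 2.38 FPKM (SD, n = 2 each), with overlap. Of the 8 basal mammary markers, 3 also lay above both controls in both knockdown samples and 0 below (17.5% and 17.1% of all genes tested), with summed levels of 7674 to 11398 FPKM in controls and 9672 to 10817 FPKM in knockdown. Their part in the values of these target genes was not tested.

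Known EGR1 targets had 5 of 10 above 0 and 5 below, with a median of 0.03 and 0 called in limma. That median was 0.12 without knockdown 2 and -0.0016 without control 2. F3, the tissue factor gene, was at 191 and 185 FPKM in control cells against 247 and 209 FPKM in knockdown cells (limma, adjusted p = 0.840). PDGFB, a growth factor gene, was at 5.19 and 5.13 FPKM and then 6.85 and 6.4 FPKM (limma, adjusted p = 0.849). THBS1, thrombospondin 1, was at 229 and 278 FPKM and then 226 and 308 FPKM, higher in both replicate 2 samples. Over the 6 lists together 97 genes were tested, 49 above 0 and 48 below with a median of 0.00, and 0 had an unadjusted p under 0.05 in limma, where 797 of the 13110 genes tested did.

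**Figure D5:**
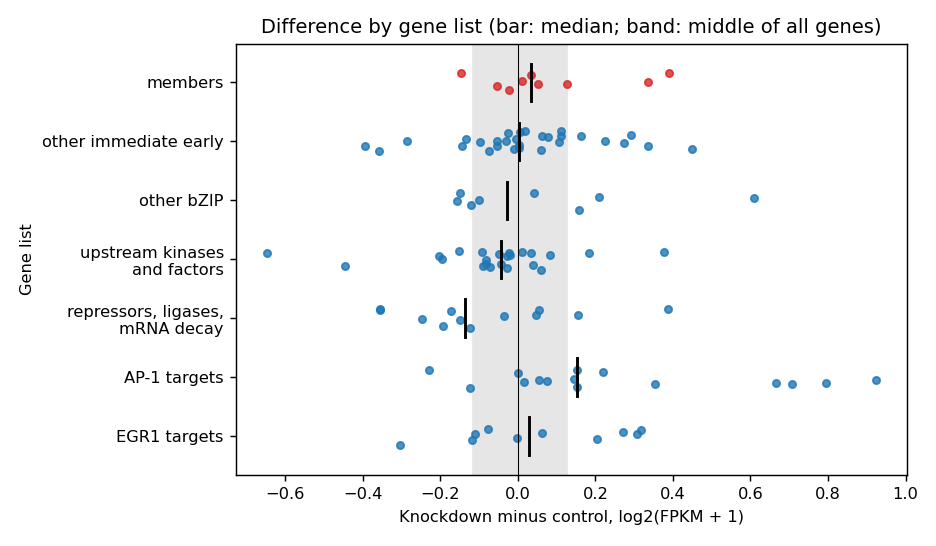
Difference of mean log2(FPKM + 1), knockdown minus control, for each tested gene of the members (red) and of 6 lists of related genes (blue). Black bars are medians and the grey band holds the middle 50% of single genes over all those tested (-0.11 to 0.13), which is no reference for a median. The median is 0.15 for the AP-1 targets and -0.14 for the list labelled repressors, ligases, mRNA decay, or 0.08 and -0.07 without control 1.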

How the data were processed

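The authors deposited 1 table of FPKM with 1 column per sample, named in its header. Per the submitters' processing notes STAR 2.5.3a, Cuffdiff 2.2.1 and GRCh37 were used, with no roles stated. The annotation release is not given in the sources used here. Low values were whole multiples of the commonest step in only 38.1% to 41.8% of cases (tolerance 0.02), so fragment counts could not be rebuilt and count models were not used.

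The 13110 genes whose mean reached 1 FPKM were compared as log2(FPKM + 1) in limma 3.58.1 (R 4.3.3) using an intensity trend, all 4 samples, no covariate and Benjamini-Hochberg adjustment at 0.05, two-sided. Differences on this scale understate changes of low genes. An exact permutation test of 2 against 2 samples cannot go below 0.333 and was not used. The fit was also run on simulated data, with no outcome given here. As the fit to the 4 samples called 1 gene of 13110, 0 called in a list does not show that its genes were unchanged. The members and gene lists were chosen with earlier results of these data known. Named genes were the members, related genes listed by name, the 2 of smallest p per list of related genes, the 5 most like FOSL2 and HNRNPF. The values of 1 gene of that list are not reported here. The markers named with their levels were chosen after their values were seen. Promoters came from RefSeq (GRCh38.p14) and transcripts from GENCODE 29, matched by symbol for 9 and 10 members. Overlapping or antisense genes can share fragments. The alternatives were pseudocounts of 0.1 and 0.5, no filter or 5 FPKM, quantile and median-ratio scaling, no trend, robust estimation, a replicate block, leaving out each sample, and summing rows per symbol. Python 3.11.15, numpy 2.4.6, pandas 2.3.3 and matplotlib 3.10.9 did the rest.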

Additional observations from a re-analysis of the deposited data

How the results depend on the processing

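The number of genes called over the whole table was 1, but 0 with no filter, 0 without the intensity trend, 2 with median-ratio scaling and 0 to 2 when each sample was left out (0 without either control, 2 without knockdown 2). With the replicate number as a block it was 0, and 1790 genes had an unadjusted p under 0.05 in limma against 797 without it. Across genes, the deviations of the replicate 1 samples from their group means correlated between control and knockdown (r = 0.39 over 13110 genes). The labels tie a number to no shared batch, and 2 pairs are too few to settle it. Of the 97 related genes, 0 were called under every alternative run, and 0 to 12 had an unadjusted p under 0.05. The median replicate difference of the members was 0.22 over all 10. It was 0.38 after quantile normalization (without FOSB), 0.39 after median-ratio scaling and 0.12 (without control 1) to 0.35 (without control 2) when each sample was left out. Their median knockdown difference, 0.04 over all 10, ran from -0.03 without control 1 to 0.26 without knockdown 1, less than the spread between samples. The count of members separated by knockdown stayed at 1 under each scaling, pseudocount and filter run. Summing rows changed nothing, since each symbol has 1 row. FPKM give no fragment counts, so the counting error of low genes such as FOSB is unknown.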
